A study of Mus with 6 samples.

Results

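Mitochondrial DNA is a small circular genome that encodes core subunits of the respiratory chain together with the ribosomal and transfer RNAs needed to translate them. Its genes were taken from the deposited table as all rows placed on the mitochondrial chromosome, which gave 37 of 54532 genes. Of these, 13 are protein coding, 2 are ribosomal RNAs and 22 are transfer RNAs. RNA was measured in the basolateral amygdala, a forebrain region needed for learned fear, of female mice. The libraries were 3 of genotype CNTNAP4-KO (KO1 to KO3) and 3 of wild type (WT1 to WT3). The sources used here do not give age, strain or the structure of the knockout allele, and no treatment is labelled for any of the 6 libraries. Whether the libraries come from different animals is not labelled, so p-values measure only the spread between these libraries, and that spread may be technical.

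Mitochondrial DNA is transcribed from both strands into long precursors that are cut largely at the transfer RNAs, and most of the resulting mRNAs receive short poly(A) tails inside the organelle. Each encoded protein works beside many nuclear-encoded subunits in complexes I, III, IV and V of the respiratory chain, which supply most of the ATP that neurons use for ion pumping and synaptic transmission. The level of mitochondrial RNA in a tissue depends on the number of genome copies, on transcription and on RNA decay. In bulk tissue fewer cells of a type and less RNA per cell cannot be told apart.

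Values are FPKM, fragments scaled to gene length and to the total of the library. Levels can so be compared between genes only within limits, and 1 is given below for genes that have a copy elsewhere. The libraries were SMARTER mRNA-Seq libraries. Whether they capture messenger, ribosomal and transfer RNA alike was not tested, so levels across these classes need not give their true proportions. The number of reads behind each value could be recovered because FPKM times gene length was a whole multiple of 1 step in each library, and the recovered reads summed to between 16153081 and 17169801 in KO and between 15933029 and 17789798 in WT. Cntnap4, the targeted gene, was at 1.08, 1.19 and 1.28 FPKM in KO1 to KO3, against 3.53, 3.90 and 2.15 FPKM in WT1 to WT3, with no overlap and a limma adjusted p of 0.302. All 7 listed markers of basolateral amygdala projection neurons were present, at a summed 1563 to 1960.2 FPKM in KO and 1332 to 2004 FPKM in WT. These sums overlapped, but the KO mean was below the WT mean for 0 of the 7 genes.

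The mitochondrial mRNAs fell into separate ranges of level. Cytochrome c oxidase subunit I, mt-Co1, was the highest gene of mitochondrial DNA at a mean of 12399.6 FPKM over the 6 libraries, followed by mt-Cytb, the cytochrome b subunit of complex III, at 6854 FPKM. The complex I subunits mt-Nd1, mt-Nd2, mt-Nd4, mt-Nd6 and mt-Nd5 followed at 5956, 3498, 3111, 2921 and 2612 FPKM. Among themselves mt-Co1, mt-Cytb, mt-Nd1, mt-Nd2 and mt-Nd4 kept this order in 6 of 6 libraries. mt-Nd4 exceeded mt-Nd6, and mt-Nd6 exceeded mt-Nd5, in 5 of 6. In WT1 mt-Nd6, at 3423 FPKM, lay above mt-Nd2, at 3064 FPKM, as well as above mt-Nd4. The ribosomal RNAs mt-Rnr1 (small subunit) and mt-Rnr2 (large subunit) lay in the same range, at 2615, 2810 and 4141 FPKM for mt-Rnr1 in KO1 to KO3 and 2914, 3021 and 4351 FPKM in WT1 to WT3. The other 6 mRNAs were far lower: mt-Atp6 averaged 249.8 FPKM, mt-Atp8 5.47 FPKM, and mt-Co2, mt-Co3, mt-Nd3 and mt-Nd4l lay between them. In every library the lowest of the first 7 mRNAs exceeded the highest of the other 6, in KO1 by 2123 to 177 FPKM and in WT3 by 4008 to 595 FPKM.

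**Figure D1:**
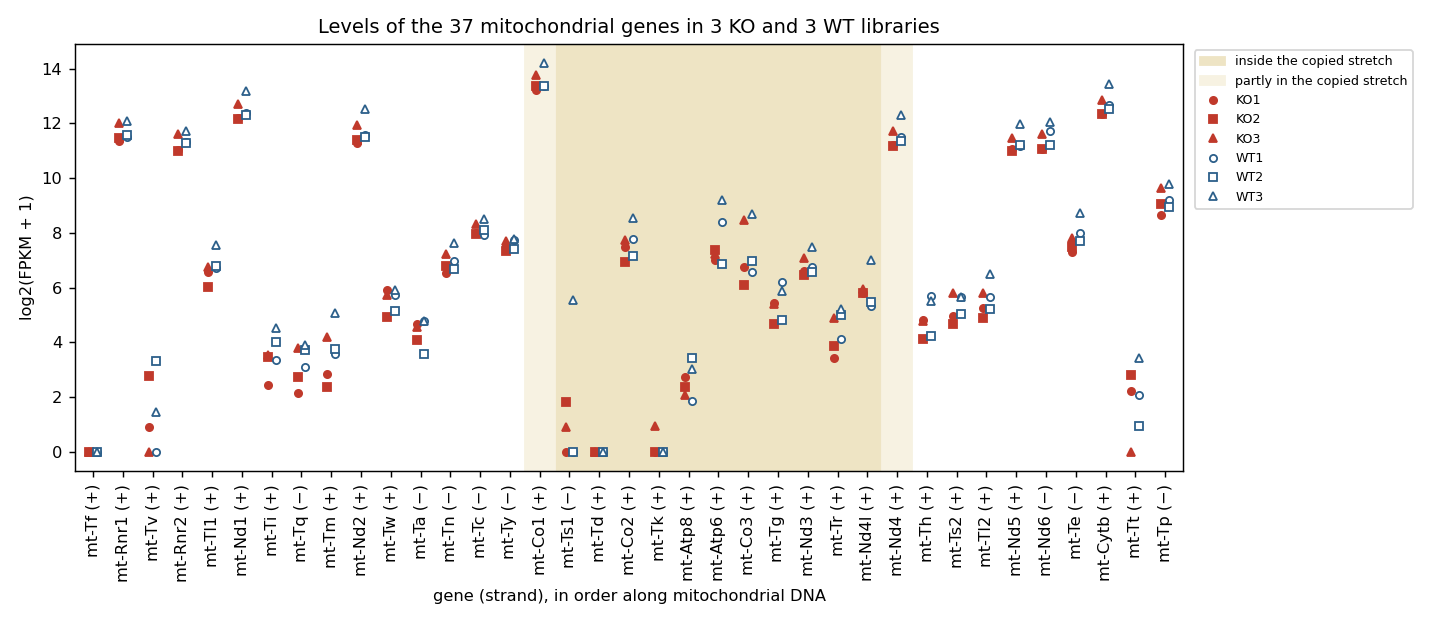
Level of each mitochondrial gene as log2(FPKM + 1) in the 3 KO libraries (filled, left) and the 3 WT libraries (open, right), in order along mitochondrial DNA with the strand in brackets. Shading marks genes inside or partly inside the stretch that has a copy on chromosome 1, and the 6 mRNAs wholly inside it lie below the other 7 in all 6 libraries.

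The 6 low mRNAs are neighbours on mitochondrial DNA, and their stretch has a copy on a nuclear chromosome. The table holds 7 pseudogenes on the minus strand of chromosome 1 between positions 24611535 and 24616197 whose order and spacing mirror those of mitochondrial genes. The end of a pseudogene and the start of its mitochondrial counterpart added up to 24622578 for Gm28661 and mt-Co2, Gm10925 and mt-Atp6, Gm28437 and mt-Co3, and Gm28438 and mt-Nd3. Gm10222 (mt-Nd4l) and Gm28439 (mt-Nd4) were shifted by 1 base from that sum, and Gm29216 mirrored the last 492 bases of mt-Co1. RefSeq, on the assembly GRCm38.p6, lists mt-Atp6 as a synonym of Gm10925, and gives all 37 mitochondrial genes the starts and ends of the deposited table. The copied stretch runs from 6381 to 11043 on mitochondrial DNA. It holds the 6 low mRNAs and 5 transfer RNA genes whole, the last 31.8% of mt-Co1 and the front 63.6% of mt-Nd4. Gm10222 was matched by position after the values were seen.

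The pseudogenes themselves had reads in all 6 libraries. Gm28661 was at 84.7, 92.2 and 144 FPKM in KO1 to KO3, against 115, 96.7 and 315 FPKM in WT1 to WT3, which was 47.8% to 83.5% of the level of mt-Co2. Gm10925 was at 33.5% to 89.9% of mt-Atp6 and Gm28437 at 16.8% to 62.9% of mt-Co3. Gm28439 and Gm29216, whose counterparts lie partly outside the stretch, were at 0.973% to 1.46% of mt-Nd4 and 0.545% to 0.913% of mt-Co1. Adding pseudogene and member together, mt-Atp6 with Gm10925 reached 227 to 287 FPKM in KO and 212 to 885 FPKM in WT, still below the lowest of the 7 other mRNAs in each library. All 7 pseudogenes were highest in WT3. The sources used here do not say how reads that match more than 1 place were treated. Levels of the 11 genes inside the stretch are therefore uncertain. The same limit holds for the copied parts of mt-Co1 and mt-Nd4, and so for their place in the order of levels. The part of the copy in these levels was not tested.

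**Figure D2:**
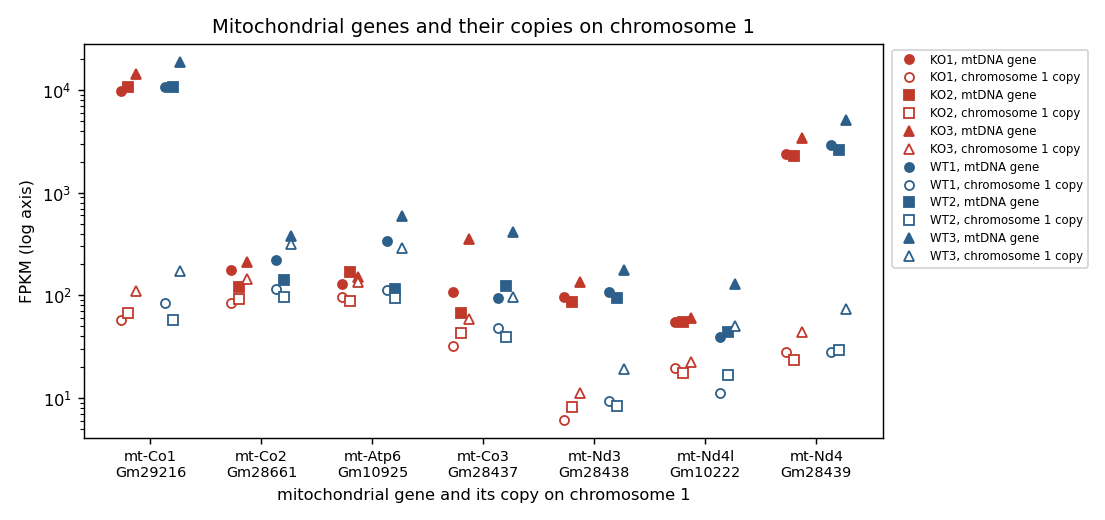
FPKM, on a log axis, of 7 mitochondrial genes (filled) and of their copies on chromosome 1 (open) in the KO libraries (left) and WT libraries (right) of each pair. The copies of mt-Co2 and mt-Atp6 lie at 33.5% to 89.9% of the mitochondrial gene, and those of mt-Co1 and mt-Nd4 at 0.545% to 1.46% of it.

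The share of reads on mitochondrial DNA differed more within the groups than between them. It was 4.10%, 4.43% and 6.31% of recovered reads in KO1 to KO3, against 5.22%, 4.76% and 8.34% in WT1 to WT3, or 4.95% ± 1.19 in KO and 6.11% ± 1.95 in WT (SD, n = 3 each). The highest library of each group is the one numbered 3, and KO3 exceeded WT1 and WT2. Without WT3 the KO mean was 0.991 times the WT mean, and without both libraries numbered 3 it was 0.854 times. WT3 held the highest value of the 6 libraries for 29 of 34 genes tested, against 18.2% of all genes tested, and KO3 the highest of the KO values for 25 of 34, against 33.5%.

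The classes of mitochondrial RNA stood at different heights in WT3. Among the 7 mRNAs not wholly inside the copied stretch, WT3 was at 1.49 to 1.96 times the mean of WT1 and WT2. Of these ratios that of mt-Nd6 was lowest and that of mt-Nd2 highest. The ribosomal RNAs in WT3 were at 1.34 times (mt-Rnr2) and 1.47 times (mt-Rnr1) the mean of WT1 and WT2. In KO3 the same mRNAs were 1.35 to 1.51 times the mean of KO1 and KO2, and the ribosomal RNAs 1.52 and 1.53 times. Per 100 mitochondrial mRNA reads there were 15.96, 15.6 and 16.9 ribosomal RNA reads in KO1 to KO3, against 16.1, 17.0 and 12.9 in WT1 to WT3, so that WT3 stood apart and the other 5 libraries lay close together.

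Striatal markers were high in the libraries numbered 3. Drd1, Drd2, Adora2a, Ppp1r1b and Rgs9 summed to 38.2, 29.8 and 161 FPKM in KO1 to KO3 and 53.7, 40.5 and 404 FPKM in WT1 to WT3. All 5 were highest in WT3, and none was at 0 in all libraries. The 5 red blood cell genes summed to 166 to 185 FPKM in KO and 133 to 431 FPKM in WT, with 5 of 5 highest in WT3. Central amygdala markers, 4 genes, summed to 12.6, 10.5 and 13.03 FPKM in KO1 to KO3, against 15.7, 19.2 and 10.9 FPKM in WT1 to WT3. The 4 meningeal markers were lower in KO, with no overlap of the sums and a lower KO mean for 4 of 4. They summed to 25.2, 9.54 and 14.5 FPKM in KO1 to KO3, against 54.6, 28.0 and 26.0 FPKM in WT1 to WT3. The 5 choroid plexus markers, with a lower KO mean for 5 of 5, summed to 23.4, 3.58 and 20.4 FPKM in KO1 to KO3, against 48.9, 15.3 and 19.1 FPKM in WT1 to WT3. Those sums overlapped, and 1 of the 5 genes had a mean of at least 1 FPKM. The 4 ependymal markers, with a lower KO mean for 2 of 4, summed to 3.48 to 3.76 FPKM in KO and 2.60 to 6.21 FPKM in WT. No listed choroid plexus, ependymal or meningeal gene was highest in WT3. The part of these tissues in the mitochondrial levels and in the nuclear OXPHOS levels was not tested. The 77 listed nuclear genes of the respiratory chain and ATP synthase, most of which encode partners of the mitochondrial subunits, did not follow the libraries numbered 3. Their summed level was 4355, 4334 and 4338 FPKM in KO1 to KO3, against 4794, 4859 and 4894 FPKM in WT1 to WT3.

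**Figure D3:**
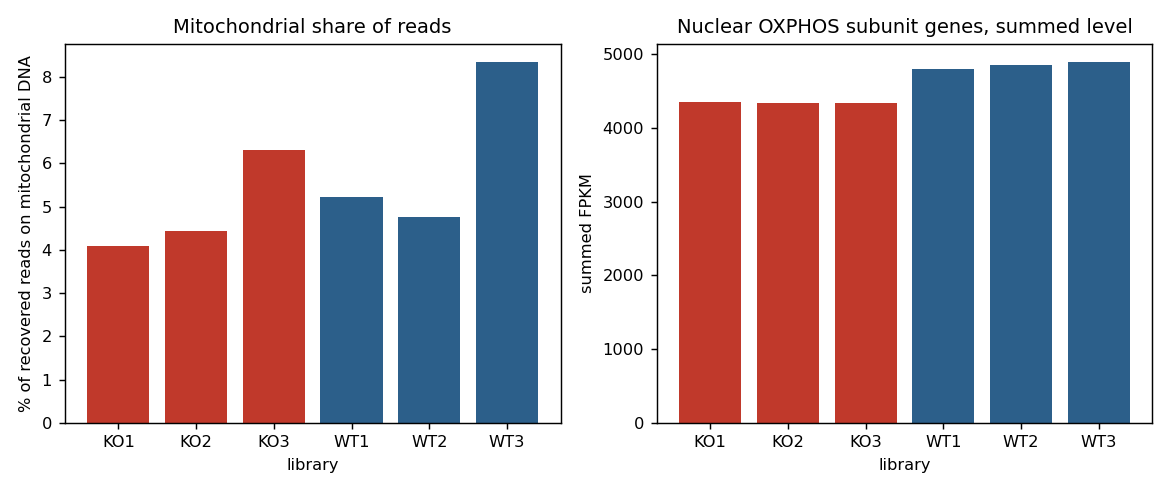
Left, percent of recovered reads on mitochondrial DNA in each KO and WT library; right, summed FPKM of the nuclear genes of oxidative phosphorylation (OXPHOS) in the same libraries. The mitochondrial share runs from 4.10% to 6.31% in KO and from 4.76% to 8.34% in WT and overlaps between the groups, while the nuclear sums do not overlap.

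Between KO and WT no mitochondrial gene passed the threshold. Genes with a mean of at least 1 FPKM were tested with limma on log2(FPKM + 1) and adjusted by the Benjamini-Hochberg method over 13087 genes, and 34 of the 37 mitochondrial genes qualified. Of these 0 had an adjusted p under 0.05 (smallest 0.364) and 0 an unadjusted p under 0.05, against 0.00764% and 14.3% of all genes tested. With voom on the recovered reads 0 passed and 1, mt-Te, had an unadjusted p under 0.05. The log2 fold change of KO over WT was negative for 33 of 34, with a median of -0.35, where it was negative for 48.7% of all genes with a median of 0.01. Without WT3 it was negative for 21 of 34 (49.1% of all genes) with a median of -0.06, and without both libraries numbered 3 for 29 of 34 (48.4% of all genes) with a median of -0.24. The KO and WT ranges overlapped for 34 of 34 genes, while 22% of all genes tested had ranges that did not overlap.

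Complex I receives electrons from NADH and has 7 subunits encoded in mitochondrial DNA. mt-Nd1 was at 4702, 4579.9 and 6629 FPKM in KO1 to KO3, against 5393, 5019 and 9416 FPKM in WT1 to WT3. Its log2 fold change of -0.28 (SE 0.29, limma adjusted p = 0.657) became 0.01 without WT3. mt-Nd2 was at 2524, 2672 and 3914 FPKM in KO1 to KO3, against 3064, 2935 and 5881 FPKM in WT1 to WT3. mt-Nd4 and mt-Nd5 averaged 2698 ± 622 and 2320.5 ± 420.4 FPKM in KO and 3524 ± 1347 and 2905 ± 956 FPKM in WT (SD, n = 3 each). In each of these 4 genes KO3 lay above WT1 and WT2, and WT3 above all.

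mt-Nd6 is the one protein-coding gene on the minus strand. It was at 2148, 2157 and 3142 FPKM in KO1 to KO3, against 3423, 2359 and 4296 FPKM in WT1 to WT3, a log2 fold change of -0.42 (SE 0.26, limma adjusted p = 0.480). WT1 was high for this gene beside its neighbour mt-Nd5: the ratio of mt-Nd6 to mt-Nd5 was 1.012, 1.06 and 1.12 in KO1 to KO3 and 1.48, 0.983 and 1.07 in WT1 to WT3. The genes share 14 bases on opposite strands (13552 to 13565), and the sources used here do not say whether counting used the strand. If counting ignored strand, reads from the precursor of the opposite strand are included over the whole of mt-Nd6. The level of mt-Nd6, its place among the mRNAs and its fold change carry this limit. mt-Nd3 averaged 106 ± 25.8 FPKM in KO and 126 ± 44.7 in WT (SD, n = 3 each). mt-Nd4l was at 55.1, 55.3 and 60.3 FPKM in KO1 to KO3, against 39.4, 44.1 and 128 FPKM in WT1 to WT3, so that the KO values lay between WT3 and the other WT libraries. Its log2 fold change was -0.09 with all libraries and 0.44 without WT3 (limma adjusted p = 0.179). Both genes lie inside the copied stretch.

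In complex III, mt-Cytb was at 5169, 5163 and 7457 FPKM in KO1 to KO3, against 6479, 5836 and 11017 FPKM in WT1 to WT3. The log2 fold change of mt-Cytb, -0.36 (SE 0.29, limma adjusted p = 0.572), was -0.07 without WT3. In complex IV, which passes electrons to oxygen, mt-Co1 was at 9661, 10683 and 14111 FPKM in KO1 to KO3, against 10637, 10583 and 18723 FPKM in WT1 to WT3. Its log2 fold change of -0.18 (SE 0.28, limma adjusted p = 0.780) was 0.10 without WT3. mt-Co2 was at 177, 120.2 and 213 FPKM in KO1 to KO3, against 220.2, 142 and 377 FPKM in WT1 to WT3. mt-Co3 was at 108, 67.7 and 354 FPKM in KO1 to KO3, against 94.0, 124 and 413 FPKM in WT1 to WT3. The libraries numbered 3 stood further from the others in mt-Co3 than in any other complex IV gene, at 4.03 times the mean of KO1 and KO2 and 3.78 times the mean of WT1 and WT2.

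ATP synthase, complex V, has the proton channel subunit encoded by mt-Atp6 and a small membrane subunit encoded by mt-Atp8. mt-Atp6 was at 129, 167 and 151 FPKM in KO1 to KO3, against 339.8, 117 and 595 FPKM in WT1 to WT3. The KO values were close together and lay above WT2 and below WT1 and WT3. The log2 fold change of -0.95 was the most negative among the mRNAs, with an SE of 0.53 and a limma adjusted p of 0.432, and it was -0.42 without WT3. As a percent of the mt-Nd1 level, mt-Atp6 was at 2.75, 3.65 and 2.28 in KO1 to KO3 and 6.30, 2.32 and 6.32 in WT1 to WT3, so WT1 was high for mt-Atp6 without being high for mt-Nd1. mt-Atp8, which shares 43 bases with mt-Atp6, was at 4.39 ± 1.21 FPKM in KO and 6.56 ± 3.63 in WT (SD, n = 3 each), from 11 to 19 reads per library in KO and 10 to 32 in WT. For the ribosomal RNAs the log2 fold changes were -0.11 for mt-Rnr1 (SE 0.24, limma adjusted p = 0.842) and -0.24 for mt-Rnr2 (SE 0.22, limma adjusted p = 0.626).

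**Figure D4:**
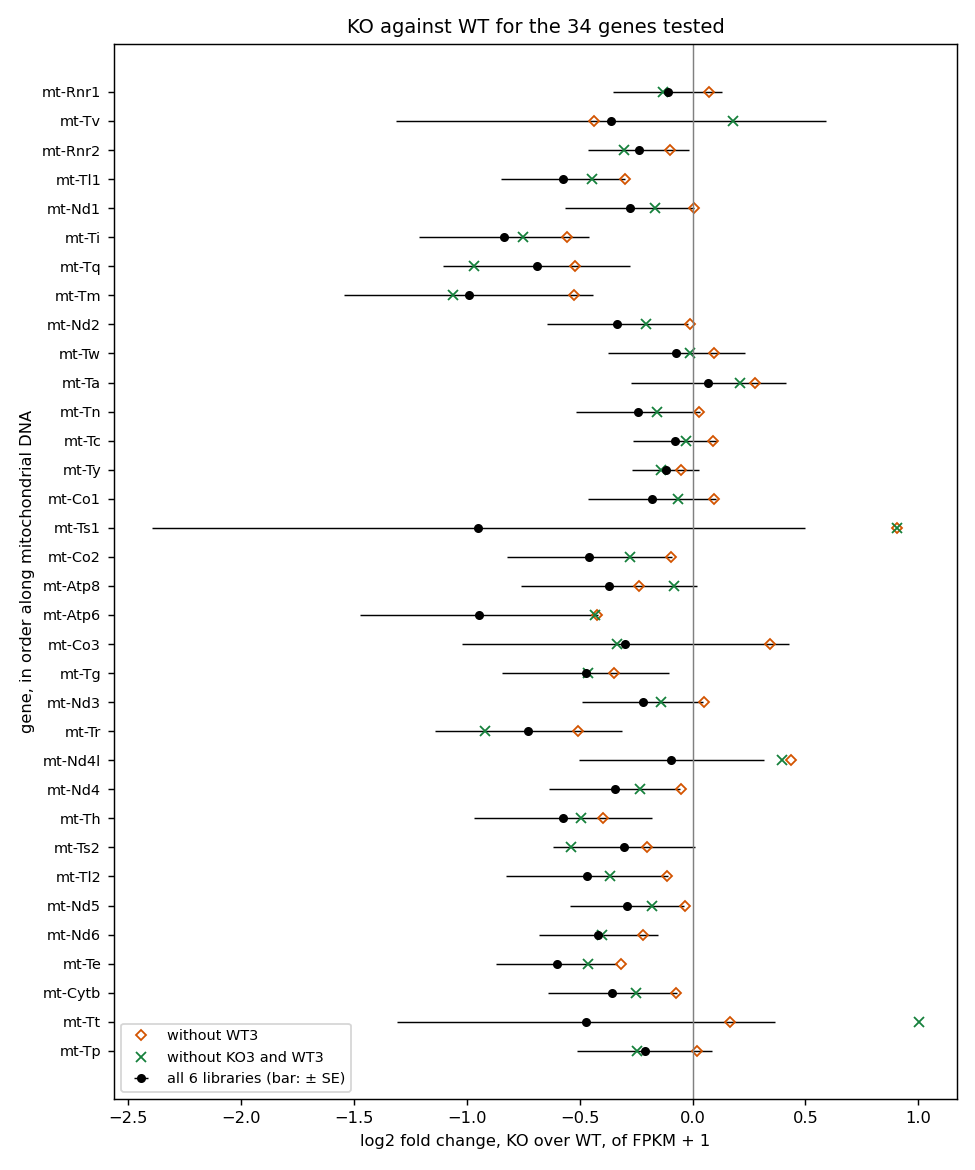
Log2 fold change of KO over WT for the 34 mitochondrial genes tested, on the log2(FPKM + 1) scale, from all 6 libraries (black, bar ± SE), without WT3 (diamonds) and without KO3 and WT3 (crosses). With all libraries 33 of 34 values are negative, and without WT3 21 are.

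Libraries with the same number deviated together across genes only weakly, with r of 0.175, 0.145 and 0.330 for pairs 1, 2 and 3. KO1 correlated more with WT2, at 0.283, than with WT1. Within same-numbered pairs the mitochondrial share was lower in KO in 3 of 3 (4.10% and 5.22%, 4.43% and 4.76%, 6.31% and 8.34% in KO and WT of pairs 1, 2 and 3). KO was below WT in all 3 pairs for 20 of 34 mitochondrial genes, against 21.7% of all genes tested. They included both ribosomal RNAs, mt-Cytb, mt-Co2 and 6 of 7 complex I genes. The KO-to-WT ratio of mt-Cytb was 0.798, 0.885 and 0.677 in pairs 1, 2 and 3. With the replicate number as a block 15 of 34 had an unadjusted p under 0.05, against 17.8% of all genes tested, and 0 passed after adjustment (smallest limma adjusted p = 0.221). Mitochondrial genes share long precursors and are not independent of each other. Neither these counts nor those of negative values above weigh as 34 separate observations. The labels give no origin for the library numbers.

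Relative to each other, the mitochondrial RNAs kept much the same proportions in KO and WT. mRNAs took 85.3% to 86.3% of mitochondrial reads in KO and 85.3% to 88.4% in WT, ribosomal RNAs 13.4% to 14.5% in KO and 11.4% to 14.5% in WT. The shares of single genes add up to 100% and so are not independent of each other. Their KO and WT ranges were apart for 3 of 34 genes. The 22% of all genes with ranges apart is for FPKM, a different scale, and gives no direct background for this count. mt-Co1 took 35.1%, 37.6% and 35.2% of mitochondrial reads in KO1 to KO3, against 33.1%, 34.5% and 34.4% in WT1 to WT3. mt-Cytb took 13.9%, 13.5% and 13.8% in KO1 to KO3, against 14.9%, 14.1% and 15.0% in WT1 to WT3. The transfer RNA mt-Te, which lies just before mt-Cytb on the other strand, took 0.0255%, 0.0279% and 0.0252% in KO1 to KO3, against 0.0355%, 0.0302% and 0.0343% in WT1 to WT3. Part of mt-Co1 lies in the copied stretch. The level of mt-Co1 was 1.87, 2.07 and 1.89 times that of mt-Cytb in KO1 to KO3 and 1.64, 1.81 and 1.70 times in WT1 to WT3. These ratios were picked after their values were seen, and 3 libraries against 3 cannot give a two-sided exact permutation p below 0.1.

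**Figure D5:**
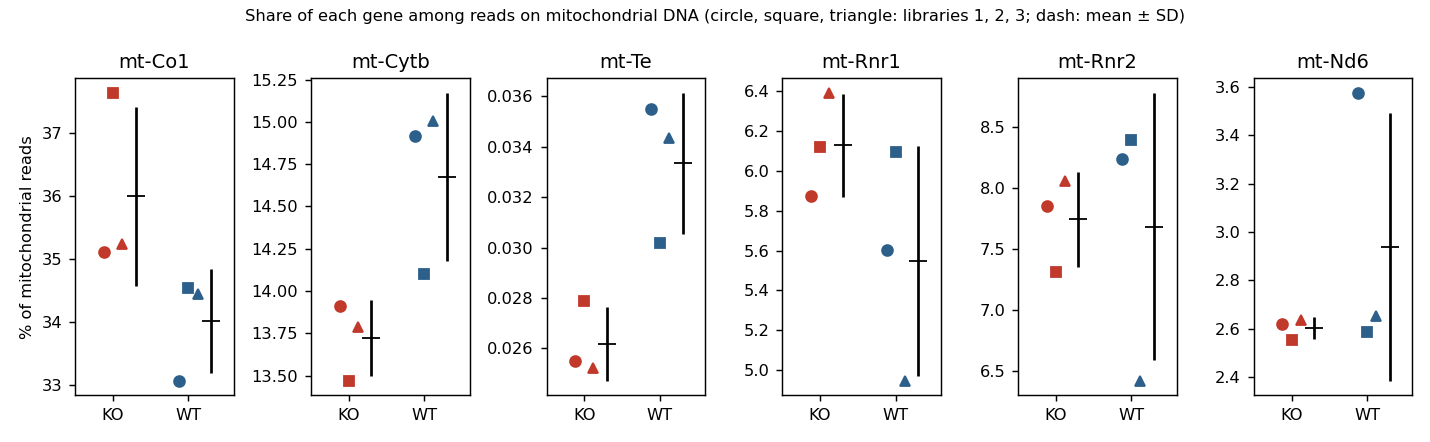
Percent of reads on mitochondrial DNA taken by 6 genes in KO (left) and WT (right) libraries, with a separate scale for each gene; symbols are libraries and the dash and bar give mean ± SD (n = 3). For mt-Co1 the KO values lie above the WT values, for mt-Cytb and mt-Te below them, and for the other 3 genes they overlap.

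Transfer RNA genes took 0.228% to 0.233% of mitochondrial reads in KO and 0.224% to 0.257% in WT. They are 59 to 75 bases long, and reads from mature transfer RNA and from uncut precursors cannot be told apart here. The median level was higher for genes on the minus strand, although mt-Ta, mt-Tq and mt-Ts1 on that strand lay below mt-Tl1 and 6 other genes of the plus strand. Strand here is that of the annotated gene, and if counting ignored strand, reads from the precursor of the opposite strand are included. The 8 of them had medians of 125, 135 and 178 FPKM in KO1 to KO3 and 167, 135 and 208 FPKM in WT1 to WT3, where the 14 on the plus strand had 8.01, 11.8 and 21.9 FPKM in KO and 13.7, 16.5 and 34.6 FPKM in WT. Minus-strand genes held 77.4% to 84.2% of transfer RNA reads in KO and 77.5% to 79.0% in WT.

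The highest was mt-Tp, the transfer RNA for proline at the end of the gene-bearing part, at 399.8, 527 and 792 FPKM in KO1 to KO3, against 595, 496 and 876 FPKM in WT1 to WT3. It was followed by mt-Tc (cysteine), mt-Te (glutamic acid), mt-Ty (tyrosine) and mt-Tn (asparagine), at means of 284, 240.2, 191 and 129 FPKM. mt-Te was at 157, 177 and 226 FPKM in KO1 to KO3, against 256, 207 and 418 FPKM in WT1 to WT3, and had the smallest p of all members (log2 fold change -0.60, SE 0.27, limma adjusted p = 0.364). mt-Tl1 (leucine), the highest on the plus strand, was at 95.0, 64.6 and 106 FPKM in KO1 to KO3, against 104, 109.8 and 189.5 FPKM in WT1 to WT3. In both genes only KO3 lay above the lowest WT value.

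mt-Tc was at 256, 248 and 323 FPKM in KO1 to KO3, against 242, 272 and 366 FPKM in WT1 to WT3. mt-Ty was at 182, 161 and 206 FPKM in KO1 to KO3, against 211, 169 and 217 FPKM in WT1 to WT3. These had the smallest spread among the transfer RNAs, with log2 fold changes of -0.08 (SE 0.19) and -0.12 (SE 0.15). mt-Tn averaged 117 ± 29.2 FPKM in KO and 142 ± 50.6 in WT (SD, n = 3 each).

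Of the 19 transfer RNA genes tested, 10 were lower in KO in all 3 same-numbered pairs, against 21.7% of all genes tested: mt-Tl1, mt-Ti, mt-Tq, mt-Tm, mt-Ty, mt-Tg, mt-Tr, mt-Th, mt-Tl2 and mt-Te. mt-Tr (arginine) was at 9.85, 13.6 and 28.6 FPKM in KO1 to KO3, against 16.5, 31.2 and 36.6 FPKM in WT1 to WT3. mt-Tg (glycine) was at 42.1, 24.6 and 41.1 FPKM in KO1 to KO3, against 72.3, 27.5 and 58.4 FPKM in WT1 to WT3. Both lie inside the copied stretch, and in both the ranges overlapped. mt-Th (histidine) and mt-Tl2 (leucine) averaged 23.3 ± 6.03 and 40.3 ± 13.9 FPKM in KO and 37.7 ± 17.6 and 58.1 ± 27.8 FPKM in WT (SD, n = 3 each). mt-Ta (alanine), with a log2 fold change of 0.07, was the 1 gene of 34 with a positive value, and averaged 21.2 ± 4.66 FPKM in KO and 21.3 ± 9.02 in WT. mt-Tw (tryptophan) and mt-Ts2 (serine) averaged 47.3 ± 16.02 and 36.6 ± 16.6 FPKM in KO and 48.8 ± 13.1 and 43.6 ± 10.3 FPKM in WT.

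The remaining transfer RNAs rested on few reads. mt-Tm (methionine) and mt-Ti (isoleucine), with log2 fold changes of -0.99 and -0.84, had 5 to 38 and 5 to 26 reads per library, and mt-Tq (glutamine), at -0.69, had 4 to 17. mt-Ts1 (serine) had 54 reads in WT3, at 46.4 FPKM, and 0 to 2.51 FPKM in the other libraries. mt-Tv and mt-Tt had at most 10 and 11 reads. Of the 3 genes below the filter, mt-Tk had 1 read in KO3 and 0 elsewhere, and mt-Tf and mt-Td had 0 in all libraries, where 3 reads would have given mt-Tf 2.54 to 2.69 FPKM in KO and 2.36 to 2.75 FPKM in WT, and mt-Td 2.47 to 2.61 FPKM in KO and 2.29 to 2.67 FPKM in WT (counting error only).

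The nuclear genes that copy, process and translate mitochondrial DNA showed no change that passed the threshold. Of 103 listed genes 96 were tested in 6 lists, and 0 passed in either direction, with 4 nominally lower and 3 nominally higher at an unadjusted p under 0.05 (14.3% of all genes tested, and 6 of the listed genes with voom) and a median log2 fold change of -0.02. Ranges were apart for 20 of the 96, against 22% of all genes tested. For transcription, Tefm, the elongation factor of the mitochondrial RNA polymerase, was at 2.02 ± 0.27 FPKM in KO and 3.14 ± 0.58 in WT (SD, n = 3 each), with no overlap and a limma adjusted p of 0.303, while Mterf3 and Tfb2m had log2 fold changes of 0.15 and 0.15. For replication, Top1mt, the mitochondrial topoisomerase, was at 4.95, 4.35 and 3.89 FPKM in KO1 to KO3, against 9.39, 5.92 and 4.96 FPKM in WT1 to WT3, and Tk2 and Lig3 had log2 fold changes of -0.16 and 0.16.

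For RNA processing, Mrm2, a methyltransferase of the large ribosomal RNA, was at 4.76 ± 0.44 FPKM in KO and 6.79 ± 1.06 in WT. Hsd17b10, a subunit of the enzyme that cuts transfer RNAs from the precursor at their front end, was at 11.9 ± 1.65 FPKM in KO and 16.2 ± 1.91 in WT. Nsun3, which methylates the transfer RNA for methionine, was at 2.28 ± 0.20 FPKM in KO and 1.53 ± 0.11 in WT (SD, n = 3 each throughout). Each had ranges apart and a limma adjusted p of 0.303. These 3 were named for having the smallest p of their list. Of the 34 genes of that list tested, 6 had ranges apart, against 22% of all genes tested. For transfer RNA charging, Lars2, the mitochondrial leucyl-tRNA synthetase, was at 15.3, 12.1 and 18.0 FPKM in KO1 to KO3, against 3.12, 3.71 and 11.3 FPKM in WT1 to WT3. The Lars2 difference of 1.36 on the log2 scale had an SE of 0.40 and a limma adjusted p of 0.303. Without WT3, the WT library nearest the KO values, the difference was 1.86 with a limma adjusted p of 0.0392. Lars2 was the 1 gene of the 96 past the threshold in that fit, where 9 of all 13087 genes tested passed. Gatb and Kars had log2 fold changes of -0.19 and -0.17.

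For translation, Gfm1 and Mtif2, an elongation and an initiation factor of the mitochondrial ribosome, had log2 fold changes of 0.20 and 0.18. Taco1, an activator of mt-Co1 translation, was at 7.75, 7.96 and 8.38 FPKM in KO1 to KO3, against 7.07, 7.49 and 6.38 FPKM in WT1 to WT3 (log2 fold change 0.18, SE 0.10, limma adjusted p = 0.412). All 3 had ranges apart, but they were named for having the smallest p of their list. Of the 11 genes of that list tested, 4 had ranges apart, against 22% of all genes tested. In the list 7 of 11 log2 fold changes were negative, with a median of -0.02, and 0 had an unadjusted limma p under 0.05. Of the regulators of mitochondrial biogenesis, Ppargc1a, a coactivator that raises expression of mitochondrial genes, was at 10.4, 9.94 and 9.22 FPKM in KO1 to KO3, against 5.10, 8.11 and 6.59 FPKM in WT1 to WT3 (log2 fold change 0.53, SE 0.15, limma adjusted p = 0.302). Ppargc1b and Yy1 had log2 fold changes of 0.45 and 0.07, with ranges that overlapped.

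Of the 77 listed nuclear OXPHOS genes tested, 66 had a negative log2 fold change, against 48.7% of all genes tested. Among them 0 passed the threshold, 18 were nominally lower and 0 nominally higher (21 with voom, either direction), where 14.3% of all genes tested were nominal in either direction, and for 30 every KO library lay under every WT library, against 10.1% of all genes tested. Their median log2 fold change was -0.17 with all libraries and -0.15 without WT3, where that of the mitochondrial genes was -0.35 and -0.06. Ndufa13, Uqcr11 and Cox5b, subunits of complexes I, III and IV, had log2 fold changes of -0.53, -0.52 and -0.43, each with a limma adjusted p of 0.302. The difference between these lists was not tested.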

How the data were processed

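The deposited table gives FPKM per gene for 6 libraries, made by the authors and named so per the file headers, with gene position, length and biotype. Per the labels' protocols, total RNA went into SMARTER mRNA-Seq libraries, and GRCm38 and mm10 are the builds in the submitters' processing notes. The aligner, counter, annotation version and use of strand: not given in the sources used here. Reads were recovered as FPKM times length in units of the smallest value of each library (100% whole within 0.01). Differences of KO minus WT were tested by limma 3.58.1 under R 4.3.3 (empirical Bayes, variance trend, two-sided) on log2(FPKM + 1), for genes with a mean of at least 1 FPKM, and this scale understates changes of low genes. The test was tried on simulated data. Members and lists were chosen with earlier results of these data known. All mitochondrial genes were named, with up to 3 genes of smallest p from each nuclear list. Deviations from the group means were correlated across genes between same-numbered libraries, to see if the numbers pair them: r was 0.175, 0.145 and 0.330 for pairs 1, 2 and 3, each over 0.1 (KO1 correlated more with WT2, at 0.283), and the pairing is taken from the title numbers. Alternatives covered filter, pseudocount, scaling, voom, block and left-out libraries. One further marker of the striatal list is not reported here.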

Additional observations from a re-analysis of the deposited data

How the results depend on the processing

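The count of mitochondrial genes past the threshold was 0 in 16 of 16 alternatives. The count over all genes, 1 in the full comparison, was 0 with no filter, with scaling by reads outside mitochondrial DNA, with quantile normalization, with no variance trend, with the replicate block and, as an alternative chosen after seeing the data, without KO3 and WT3. It ranged from 0 to 9 with 1 library left out, and the count among nuclear genes of mitochondrial expression from 0 to 1, the highest of both being without WT3. The number of genes whose share of mitochondrial reads did not overlap, 3, ranged from 5 to 10 with 1 library left out, where fewer libraries have to be apart. The median log2 fold change of the members ranged from -0.53 to -0.06 over these fits, and the KO minus WT difference in read share from -1.85 to -0.05 percentage points. Of 541 log2 fold changes of single members under the alternatives, 516 kept their direction and side of the threshold and 25 changed sign, 12 of them without WT3. With 1 library left out the values ranged for mt-Co1 from -0.34 to 0.10, for mt-Nd1 from -0.45 to 0.0064, for mt-Rnr1 from -0.31 to 0.073, for mt-Tp from -0.47 to 0.019, for mt-Tc from -0.21 to 0.091, for mt-Co3 from -0.98 to 0.34, for mt-Tn from -0.45 to 0.030, for mt-Nd3 from -0.41 to 0.049, for mt-Nd4l from -0.40 to 0.44, for mt-Tw from -0.30 to 0.23, for mt-Ts1 from -1.88 to 0.91, for mt-Tt from -1.07 to 0.37, for mt-Tv from -1.16 to 0.51 and for mt-Ta from -0.33 to 0.28. Without KO3 and WT3 the value was 0.40 for mt-Nd4l, 0.91 for mt-Ts1, 1.00 for mt-Tt and 0.18 for mt-Tv. With quantile normalization mt-Co1, the top gene in each library, is set equal and has no value. The replicate block changed no other call. The cause of these changes was not tested. Depth limits several transfer RNAs and mt-Atp8, which had fewer than 30 reads in at least 1 library.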
